A study of Mus musculus with 13 samples.

Results

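The TNF superfamily is a set of small signalling proteins, most of them trimers on the cell surface, and the receptors they bind. The genes described here are the mouse protein-coding genes whose symbols begin with Tnfsf (ligands) or Tnfrsf (receptors). A gene was included when a region of the deposited H3K27ac table overlapped its body or had it as the nearest protein-coding gene within 100 kb. Of 32 such genes in the RefSeq annotation, 28 had a region, 11 ligands and 17 receptors, out of 14980 genes with a region in all. They hold 83 of the 40691 regions. Tnfrsf19, Tnfrsf25, Tnfrsf4 and Tnfsf11 had none. H3K27ac, acetylation of histone H3 at lysine 27, marks active promoters and enhancers, and was measured by chromatin immunoprecipitation and sequencing.

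The cells were bone marrow-derived macrophages, grown from marrow precursors in M-CSF, of strain 129S6/SvEvTac and genotype IL10-/-RAG2-/- in every group, controls included. Animals of this genotype cannot produce IL-10 and lack mature lymphocytes of the T and B lineages. The groups, of 3 libraries each from 3 independent macrophage pools, were as follows. Late IL-10 cells had 195 min of LPS, with IL-10 added for only the final 30 min. Continuous IL-10 cells had LPS and 1 ng/mL of IL-10 side by side over the same 195 min. LPS cells had 1 ng/mL of LPS for 195 min, and untreated cells had neither. LPS, bacterial lipopolysaccharide, activates macrophages, and IL-10 is a cytokine that restrains them. The IL-10 concentration of the late group is not restated in the labels. Values below are the deposited signal, summed over the regions of a gene or given for 1 region, and are listed in the order of replicates 1, 2 and 3. Each is a whole number of reads times 1 factor per library. The lowest value a region can have is 1 read, called the floor here.

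Binding of a ligand clusters its receptor, and the cytoplasmic tail then recruits TRAF adaptor proteins or, for receptors with a death domain, adaptors that can lead to NF-kB activation or to cell death. Several ligands on myeloid cells, such as those encoded by Tnfsf4, Tnfsf9 and Tnfsf18, costimulate T cells, and others, encoded by Tnfsf13 and Tnfsf13b, sustain B cells and plasma cells. Several of these genes lie side by side in the genome, as with Tnfsf4 and Tnfsf18, Tnfsf15 and Tnfsf8, Tnfrsf1b and Tnfrsf8, and Tnfrsf22, Tnfrsf23 and Tnfrsf26.

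The libraries held between 5149730 and 26922552 reads over all regions. In every group replicate 3 held the most: 11083204 with late IL-10, 10035619 with continuous IL-10, 20884182 with LPS and 26922552 in untreated cells. The libraries numbered 3 stand apart at the ligand genes Tnfsf4, Tnfsf18, Tnfsf15 and Tnfsf8: replicate 3 was the lowest library of its group in all 16 combinations of these genes and the 4 groups, against 49 of 112 over all 28 genes. A low replicate 3 was not confined to these genes, as at Tnfaip3 with LPS (24540, 32576 and 6726). Whether the difference in reads has a part in this was not tested. Family genes whose call changed without the libraries numbered 3 are given with and without them. The 10 macrophage markers examined all had a region, and their summed signal was 41317 to 54437 with late IL-10, 47663 to 57744 with continuous IL-10, 47281 to 72105 with LPS and 44139 to 58499 in untreated cells. Of 9 T cell markers, Cd3g, Cd8a and Trac had no region, and the other 6 summed to 965 to 1430 with late IL-10, 425 to 580 with continuous IL-10, 850 to 1007 with LPS and 444 to 624 in untreated cells. Between LPS and untreated libraries, 4 of these 6 were called higher (Cd3e, Cd247, Lck, Cd8b1) and none lower. The remaining Cd4 and Cd3d had lower means with LPS (38 against 278, and 66.1 against 155). With the replicate number as a block, 4 of the 6 were called higher and 2 lower, against 20.1% and 23.4% of all genes. The list was thus mixed in direction. At an unadjusted p under 0.05 there was 1 lower, and edgeR called 4 higher and 0 lower. Over all 13482 genes, 14.2% were called higher and 13.3% lower in this comparison, and the lists that follow stand against the same shares. Cd3e and Cd8b1 were at the floor in all untreated libraries, with means of 47.2 and 150 with LPS. In the same comparison 2 macrophage markers were called higher and 3 lower of 10, 1 NK cell marker higher of 2, 1 neutrophil marker higher and 2 lower of 4, 2 dendritic cell markers higher and 2 lower of 5, and 1 higher and 1 lower of both 5 osteoclast and 2 fibroblast markers. The fibroblast marker Dcn had 8514, 8288 and 389 with LPS against 8.48, 12.6 and 4.19 in untreated cells. The other, Pdgfrb, had nearly the values of the macrophage marker Csf1r (untreated 7235, 7366 and 9763 against 7234, 7365 and 9763). Its signal therefore cannot be counted apart from that of Csf1r. None of the 3 B cell markers was called by limma; at an unadjusted p under 0.05 there was 1 higher and 1 lower, and edgeR called 1 higher. Relative to LPS, 2 of the 4 neutrophil markers, Elane and Mmp8, were called higher with late and also with continuous IL-10 (against 3.19% and 2.59% of all genes), though 0 by edgeR. Their list summed to 2626 to 2949 with late IL-10, 3223 to 3489 with continuous IL-10, 2247 to 2526 with LPS and 2820 to 3898 in untreated cells. The neutrophil marker Ltf was called lower with late than with continuous IL-10 (against 0.668% of all genes). Of the 5 dendritic cell markers Zbtb46 was called lower with continuous IL-10 than with LPS (against 3.17% of all genes). The part of such cells in the results below was not tested, and a change in the share of cells that carry a mark cannot be told apart from a change per cell.

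The promoters that follow lie under a region that changed, and are shown because the results turn on them: those of Tnfsf14, Tnfsf10 and Tnfrsf9, which had the smallest adjusted p among the windows available, and that of Tnfrsf17, where the promoter region and a distant region moved in opposite directions. Each is the 250 bases before a RefSeq start site in GRCm38.p6, written 5′ to 3′ on the strand of the gene, at chr17:57194182-57194431 (minus strand), chr3:27316827-27317076 (plus), chr4:150927749-150927998 (plus) and chr16:11313559-11313808 (plus). Capitals mark matches, on either strand, to an NF-kB site, an ISRE (GAAA, any 2 bases, GAAA), a STAT site (TTCNNNGAA) or an AP-1 site (TGANTCA).

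Tnfsf14 promoter: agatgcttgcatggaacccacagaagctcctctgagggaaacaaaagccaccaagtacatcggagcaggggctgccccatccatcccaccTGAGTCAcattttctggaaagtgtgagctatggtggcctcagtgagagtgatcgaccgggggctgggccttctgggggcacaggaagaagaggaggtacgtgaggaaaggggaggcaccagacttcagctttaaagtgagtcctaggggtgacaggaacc

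Tnfsf10 promoter: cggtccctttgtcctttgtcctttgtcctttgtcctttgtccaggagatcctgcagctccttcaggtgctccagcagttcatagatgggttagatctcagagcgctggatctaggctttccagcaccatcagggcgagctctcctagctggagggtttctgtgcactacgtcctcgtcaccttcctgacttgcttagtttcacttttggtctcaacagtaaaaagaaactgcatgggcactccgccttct

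Tnfrsf9 promoter: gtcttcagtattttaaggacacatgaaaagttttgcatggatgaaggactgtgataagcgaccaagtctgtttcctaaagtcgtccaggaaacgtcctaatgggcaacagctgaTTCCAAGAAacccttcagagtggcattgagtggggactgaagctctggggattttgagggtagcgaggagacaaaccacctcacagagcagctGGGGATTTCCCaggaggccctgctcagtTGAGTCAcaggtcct

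Tnfrsf17 promoter: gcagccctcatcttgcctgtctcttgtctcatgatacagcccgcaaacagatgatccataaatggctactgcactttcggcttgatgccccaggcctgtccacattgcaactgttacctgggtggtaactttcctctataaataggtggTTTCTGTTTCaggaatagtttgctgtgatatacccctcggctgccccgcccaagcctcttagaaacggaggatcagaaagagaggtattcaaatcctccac

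The Tnfsf14 window holds an AP-1 match 160 to 154 bases before the start site, and the Tnfsf10 window holds none of the 4 motifs. The Tnfrsf9 window holds 2 overlapping NF-kB matches, 43 to 34 and 42 to 33 bases before the start site, with a STAT match 136 to 128 and an AP-1 match 15 to 9 bases before it. The Tnfrsf17 window holds an ISRE match 101 to 92 bases before the start site. Over all 32851 mouse windows of this length, 3.9% hold the NF-kB motif, 2.98% the ISRE, 7.02% the STAT motif and 6.75% the AP-1 motif. A match describes the letters of the window only.

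LPS, compared with untreated cells, changed H3K27ac at 11 of the 25 family genes that could be tested, with gains at the ligand genes Tnfsf9, Tnfsf4 and Tnfsf10 and at Tnfrsf17, and losses at Tnfsf14, at the locus shared by Tnfsf12 and Tnfsf13, and at Tnfrsf21, Tnfrsf23 and Tnfrsf26. The 4 genes called higher are 16% of those tested, against 14.2% of all 13482 genes, and the 7 called lower are 28%, against 13.3% of all genes. Of those 7, Tnfsf12, Tnfsf13 and their read-through entry Tnfsfm13 rest on 1 shared region. By kind, 3 of 11 ligand genes were called higher and 4 lower, and 1 of 14 receptor genes was called higher and 3 lower. The median log2 change of the 25 genes was 0.31, against -0.11 over all genes. Calls are at a limma adjusted p under 0.05, and every adjusted p below is from limma unless edgeR is named. Counts at an unadjusted p under 0.05 or by edgeR, above and below, have no share of all genes or regions beside them. They cannot be set against the shares of limma calls.

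**Figure D1:**
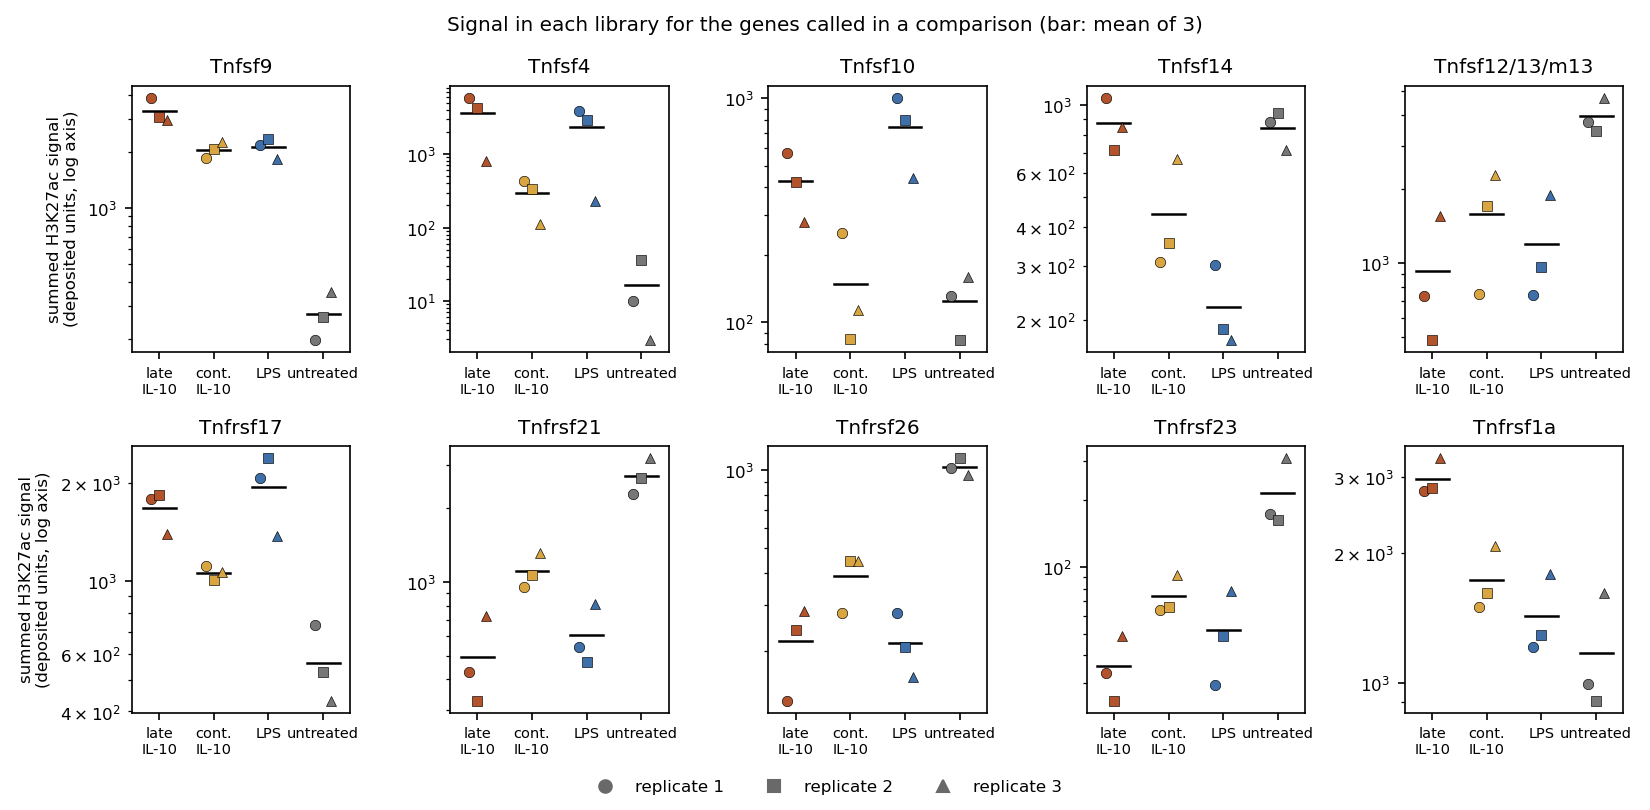
Summed H3K27ac signal in deposited units (log axis) of each library, by group, for the genes called in a comparison. Points are libraries, shaped by replicate number, and bars are means of 3. The LPS libraries lie above all untreated libraries at Tnfsf9, Tnfsf4, Tnfsf10 and Tnfrsf17 and below all of them at Tnfsf14, Tnfsf12/13, Tnfrsf21, Tnfrsf26 and Tnfrsf23.

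Tnfsf9, which encodes the 4-1BB ligand, lay under 1 region of 23808 bp, chr17:57093245-57117052. Its signal was 3860, 3060 and 2952 with late IL-10, 1841, 2054 and 2241 with continuous IL-10, 2168, 2331 and 1821 with LPS, and 197, 261 and 357 in untreated cells. All 9 stimulated libraries lay above the 3 untreated ones. The LPS-minus-untreated log2 change was 2.99 (SE 0.26, adjusted p = 7.72e-06). It kept its call without each library and under every alternative run.

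At Tnfsf4, encoding the OX40 ligand, the sum over 7 regions was 5778, 4270 and 806 with late IL-10, 428, 339 and 113 with continuous IL-10, 3912, 2885 and 229 with LPS, and 9.9, 36.6 and 2.93 in untreated cells. LPS replicate 3 was far below the other LPS libraries and still above every untreated one. The log2 change with LPS was 6.87 (SE 1.1, adjusted p = 0.00054), and 7.38 (adjusted p = 2.31e-06) without the libraries numbered 3. Most of the signal came from a region of 17717 bp that lies 31351 bp from the gene, chr1:161346371-161364087, with 2599, 2180 and 224 in LPS libraries against 0.707, 8.82 and 0.419 in untreated ones (log2 change 8.56, adjusted p = 5.47e-05). With only the regions over the gene body the call was lost (adjusted p = 0.0808).

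Tnfsf10 encodes TRAIL, which can trigger apoptosis through death receptors. Its 7 regions summed to 571, 425 and 281 with late IL-10, 250, 83.8 and 113 with continuous IL-10, 1002, 802 and 441 with LPS, and 131, 83.2 and 160 in untreated cells. The LPS group lay above the untreated group in every library, with a log2 change of 2.55 (SE 0.49, adjusted p = 0.0019). Of its 7 regions 5 were called higher and none lower; the region over the promoter shown above had 445, 447 and 221 with LPS against 44.5, 40.3 and 65.3 in untreated cells (log2 change 2.82, adjusted p = 0.00145). A region within the gene, chr3:27323270-27328797, had 179, 150 and 35.7 with LPS and lay at the floor in all 3 untreated libraries, at least 50.9-fold higher when the untreated group is set to 3 reads per library. That bound, like the others below, compares group means of deposited values and does not show that the region lacked H3K27ac.

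Tnfrsf17, whose product BCMA binds APRIL and BAFF, was the receptor gene called higher. Its summed signal was 1789, 1838 and 1393 with late IL-10, 1115, 1009 and 1064 with continuous IL-10, 2072, 2376 and 1373 with LPS, and 733, 528 and 432 in untreated cells (LPS-minus-untreated log2 change 1.78, SE 0.28, adjusted p = 0.00049). The sum rests on a region of 18103 bp that lies 15342 bp upstream of the gene, chr16:11279788-11297890, with 2058, 2364 and 1349 with LPS against 368, 269 and 198 in untreated cells (log2 change 2.79, adjusted p = 2.95e-05). The region over the gene and its promoter went the other way, with 13.8, 11.8 and 23.2 with LPS against 365, 260 and 234 in untreated cells, a log2 change of -4.09 (adjusted p = 0.0169, or 0.0609 without untreated replicate 1 and 0.0536 without LPS replicate 2). Counted over the gene body alone, Tnfrsf17 therefore fell by 4.09 on the log2 scale (adjusted p = 0.0264).

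The losses at ligand genes were smaller in log2 terms than the gains at Tnfsf9, Tnfsf4 and Tnfsf10. Tnfsf14 encodes LIGHT, a ligand of HVEM and of the lymphotoxin beta receptor. Its 4 regions summed to 1053, 715 and 849 with late IL-10, 309, 354 and 667 with continuous IL-10, 301, 187 and 172 with LPS, and 880, 940 and 713 in untreated cells. The LPS-minus-untreated log2 change was -1.97 (SE 0.36, adjusted p = 0.00126), and all LPS libraries lay below all untreated ones. The shared region of Tnfsf12, encoding TWEAK, and Tnfsf13, encoding APRIL, also overlaps Senp3, so its signal cannot be given to 1 gene. It had 734, 486 and 1559 with late IL-10, 749, 1700 and 2284 with continuous IL-10, 740, 960 and 1885 with LPS, and 3743, 3453 and 4687 in untreated cells, a log2 change with LPS of -1.83 (SE 0.48, adjusted p = 0.0126, or 0.0625 without LPS replicate 1). Tnfsf13b, encoding BAFF, was not called over its 2 regions (log2 change -0.18, SE 0.55). Its region within the gene, chr8:10030328-10031796, was at the floor in all LPS libraries and had 35.3, 29 and 17.6 in untreated cells, at least 6.64-fold lower with LPS (adjusted p = 0.00528).

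Among the receptors, Tnfrsf21, whose product DR6 is a death domain receptor, had 430, 328 and 725 with late IL-10, 956, 1070 and 1305 with continuous IL-10, 541, 472 and 809 with LPS, and 2271, 2638 and 3184 in untreated cells. LPS libraries were all below untreated ones (log2 change -2.17, SE 0.32, adjusted p = 0.000357). Of its 8 tested regions, spread over about the whole gene and beyond its end, 5 were called lower and none higher, and the other 3 had negative estimates. The clearest was chr17:43087668-43093619, at the floor in all 9 stimulated libraries and with 196, 221 and 184 in untreated cells, at least 48.7-fold lower with LPS than without.

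The neighbouring genes Tnfrsf26, Tnfrsf22 and Tnfrsf23 on chromosome 7 all had negative LPS-minus-untreated estimates. Tnfrsf22 and Tnfrsf23 encode decoy receptors that bind TRAIL in the mouse. Tnfrsf26 had 129, 242 and 284 with late IL-10, 282, 446 and 445 with continuous IL-10, 279, 207 and 159 with LPS, and 1024, 1112 and 959 in untreated cells (LPS-minus-untreated log2 change -2.29, SE 0.38, adjusted p = 0.000673). Tnfrsf23 had 33.5, 25.1 and 48.7 with late IL-10, 64.1, 66.1 and 91.7 with continuous IL-10, 29.5, 48.7 and 77.9 with LPS, and 174, 163 and 308 in untreated cells. Its log2 change with LPS was -2.07 (SE 0.58, adjusted p = 0.0174), and the call was lost without untreated replicate 3 (0.058), LPS replicate 1 (0.0731) or LPS replicate 2 (0.0535). It came from the promoter region, which also overlaps Osbpl5. The single region of Tnfrsf22, too weak to be tested as a gene, had 1.97, 1.68 and 7.42 with LPS against 5.66, 20.2 and 33.9 in untreated cells (log2 change -2.07, adjusted p = 0.0995, or 0.0244 with the replicate number as a block).

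At the level of single regions, 16 of 78 tested family regions were called higher with LPS (20.5%, against 16.5% of all 36621 regions) and 14 lower (17.9%, against 17.9% of all regions), so both shares were near those of all regions. Several calls were at genes whose sum was not called. One was Tnfrsf11a, encoding RANK, the receptor that drives osteoclast formation. Its LPS-minus-untreated log2 change over all regions was 0.18 (SE 0.29, adjusted p = 0.706), and 0.61 (adjusted p = 0.0293), a call, without the libraries numbered 3. Its promoter and body region of 29891 bp had 1623, 1956 and 1409 with LPS against 1819, 2215 and 2461 in untreated cells and was not called (log2 change -0.38, SE 0.23, adjusted p = 0.219). In contrast, 3 regions beyond the end of the gene, 11833, 40703 and 56131 bp from it, lay at the floor in all untreated libraries. The nearest, chr1:105861277-105868337, had 682, 724 and 65.5 with late IL-10, 118, 81.3 and 6.9 with continuous IL-10, while LPS libraries had 866, 918 and 62.6. It was at least 258-fold higher with LPS (adjusted p = 0.000527), and the others at least 14.8-fold (adjusted p = 0.0398) and 102-fold (adjusted p = 0.000488). The call at 14.8-fold was lost without each of 5 of the 6 libraries (adjusted p up to 0.146) and with a pseudocount of 5 (0.068). These regions were placed by distance alone, and which gene they act on was not measured.

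**Figure D2:**
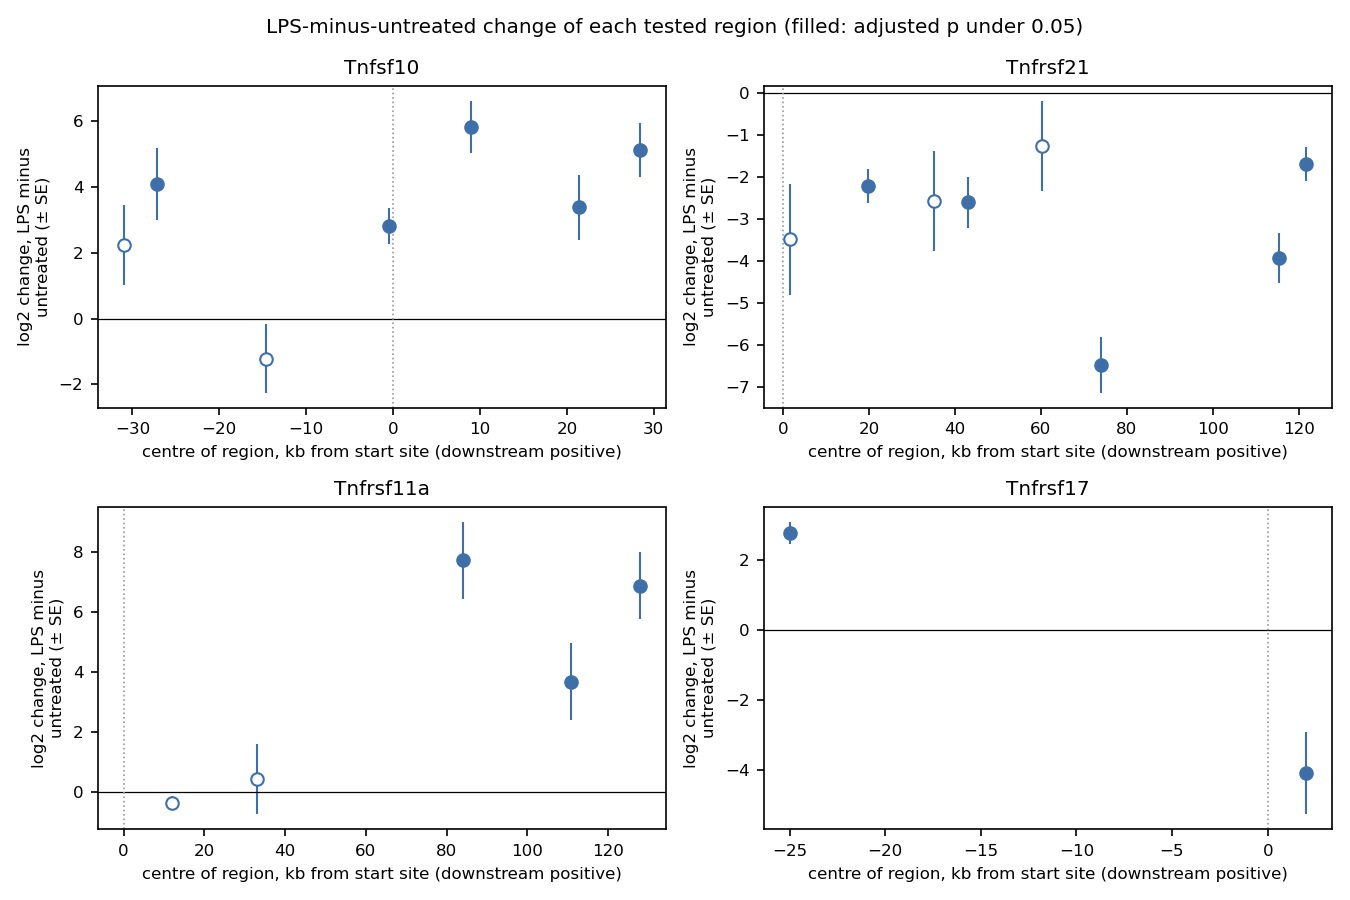
LPS-minus-untreated log2 change (± SE, vertical) of each tested region against the distance of its centre from the RefSeq start site in kb (horizontal), for Tnfsf10, Tnfrsf21, Tnfrsf11a and Tnfrsf17; filled points have an adjusted p under 0.05. All points of Tnfrsf21 lie below 0, the 3 distal regions of Tnfrsf11a lie above 0 and the gene-body regions near it, and the 2 regions of Tnfrsf17 lie on opposite sides.

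A region within Tnfrsf13b, encoding TACI, another receptor of BAFF and APRIL, had 82.6, 114 and 25 with LPS and was at the floor in untreated cells, at least 31-fold higher (adjusted p = 0.00134), while the sum over its 5 regions was not called (log2 change 0.09, SE 0.38). Tnfrsf1b, encoding TNFR2, and Tnfrsf8, encoding CD30, share a region of 61816 bp, chr4:145227444-145289259. It had 20226, 25003 and 12628 with late IL-10, 23537, 17610 and 11800 with continuous IL-10, 17165, 24528 and 11930 with LPS, and 7805, 10253 and 11600 in untreated cells. It was not called with LPS (log2 change 0.81, SE 0.32, adjusted p = 0.065), but was with the replicate number as a block (adjusted p = 0.0135). Summed over their regions, both genes were called higher without the libraries numbered 3 (adjusted p = 0.00292 for Tnfrsf1b and 0.00247 for Tnfrsf8). Within Tnfrsf1b, chr4:145213826-145226082 fell, with 1.97, 42 and 139 with LPS against 224, 176 and 192 in untreated cells (log2 change -2.92, adjusted p = 0.0484). That call was lost without each of 5 libraries (adjusted p up to 0.169) and by edgeR (0.199). Within Tnfrsf8, chr4:145299748-145301400 had 1.97, 20.2 and 11.6 with LPS and was at the floor in all untreated libraries. LPS replicate 1 was at the floor as well. The LPS mean was at least 4.71-fold higher (adjusted p = 0.0304). This call was also lost without each of 5 libraries (adjusted p up to 0.134), without the libraries numbered 3 (0.132) and with a pseudocount of 5 (0.0663).

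**Figure D3:**
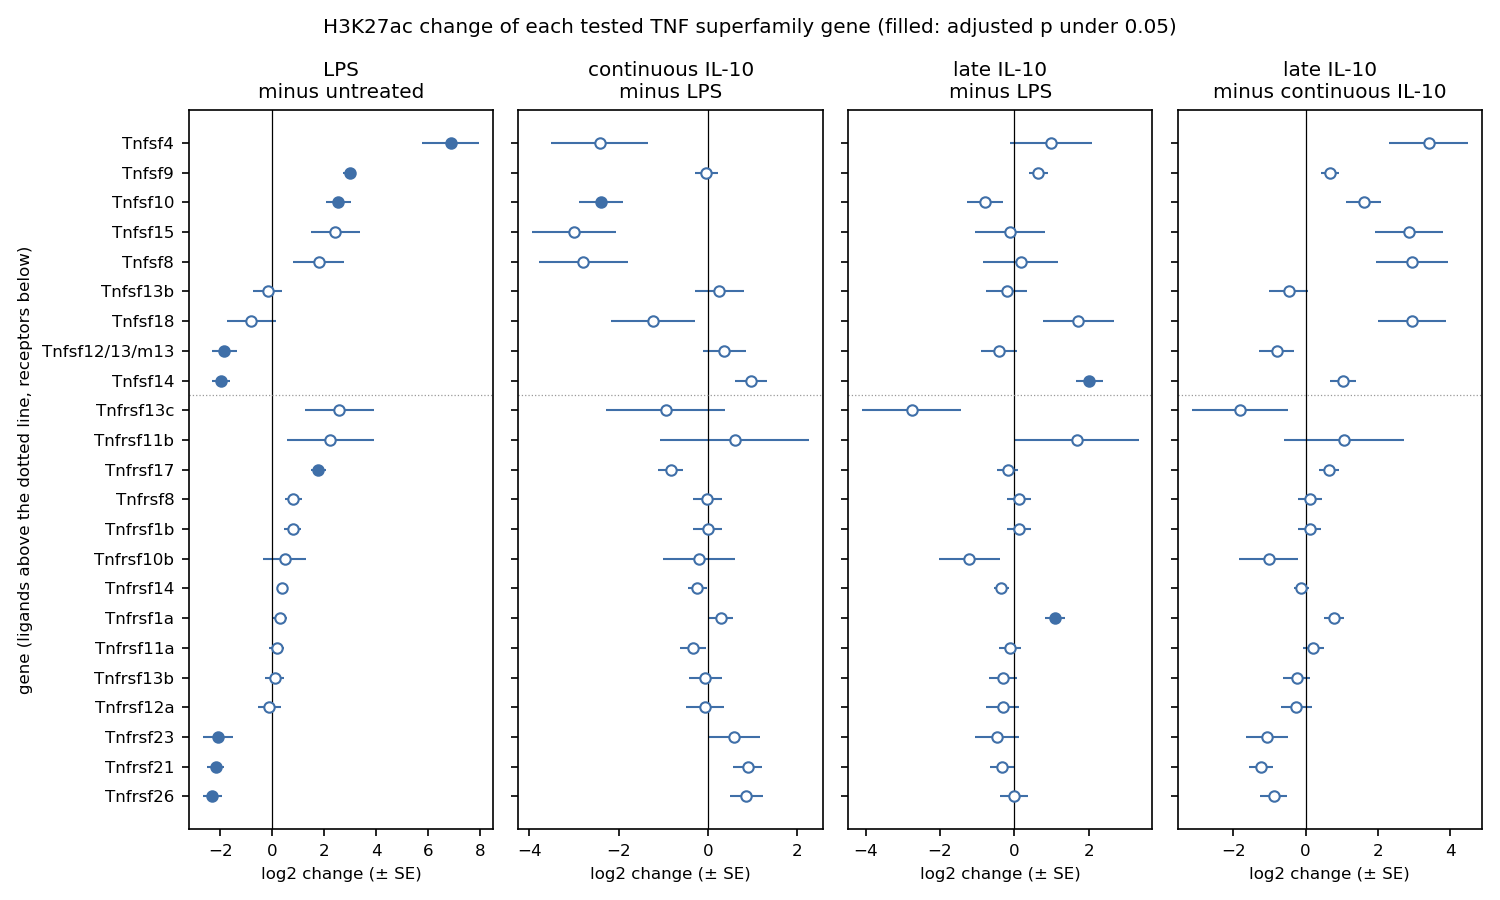
Log2 change (± SE, horizontal) of each tested family gene in the 4 comparisons, with ligands above the dotted line and receptors below, in order of the LPS effect; filled points have an adjusted p under 0.05. Filled points are frequent for LPS minus untreated, with 1 for continuous IL-10 minus LPS, at Tnfsf10, and 2 for late IL-10 minus LPS, at Tnfsf14 and Tnfrsf1a.

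At the ligand genes Tnfsf15 and Tnfsf8 the LPS call depended on the libraries numbered 3. Tnfsf15, encoding TL1A, had 2064, 996 and 247 with late IL-10, 261, 127 and 38.4 with continuous IL-10, 2249, 1259 and 235 with LPS, and 262, 199 and 79.1 in untreated cells. Tnfsf8, encoding the CD30 ligand, had 5607, 3737 and 818 with late IL-10, 819, 442 and 101 with continuous IL-10, 6263, 4373 and 445 with LPS, and 1082, 729 and 376 in untreated cells. In both genes the late IL-10 and LPS groups overlapped the untreated group only through replicate 3. Neither gene was called with LPS over all libraries (Tnfsf15 log2 change 2.44, SE 0.94, adjusted p = 0.0721; Tnfsf8 1.79, SE 1, adjusted p = 0.215). Both were called with the replicate block (adjusted p = 1.24e-05 for Tnfsf15 and 0.000905 for Tnfsf8) and without the libraries numbered 3 (adjusted p = 0.000462 and 0.000188, in that order). The promoter region of Tnfsf15, chr4:63739434-63768126, was called with LPS over all libraries (log2 change 2.67, adjusted p = 0.0349, or up to 0.153 without 1 of 5 libraries).

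Tnfsf18, encoding the GITR ligand, differed from its neighbour Tnfsf4 in its untreated level. It had 3654, 3218 and 901 with late IL-10, 460, 431 and 114 with continuous IL-10, 1655, 1499 and 119 with LPS, and 1518, 2124 and 479 in untreated cells. The LPS-minus-untreated log2 change was -0.79 (SE 0.95, adjusted p = 0.598), and -0.19 (SE 0.23, adjusted p = 0.534) without the libraries numbered 3, so a change with LPS was not detected either way. With the block, 8 family genes were called higher and 7 lower with LPS, against 20.1% and 23.4% of all genes. The genes added were Tnfrsf1b, Tnfrsf8, Tnfsf15 and Tnfsf8. For regions the blocked counts were 27 higher (against 24.1% of all regions) and 17 lower (against 24.9%).

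**Figure D4:**
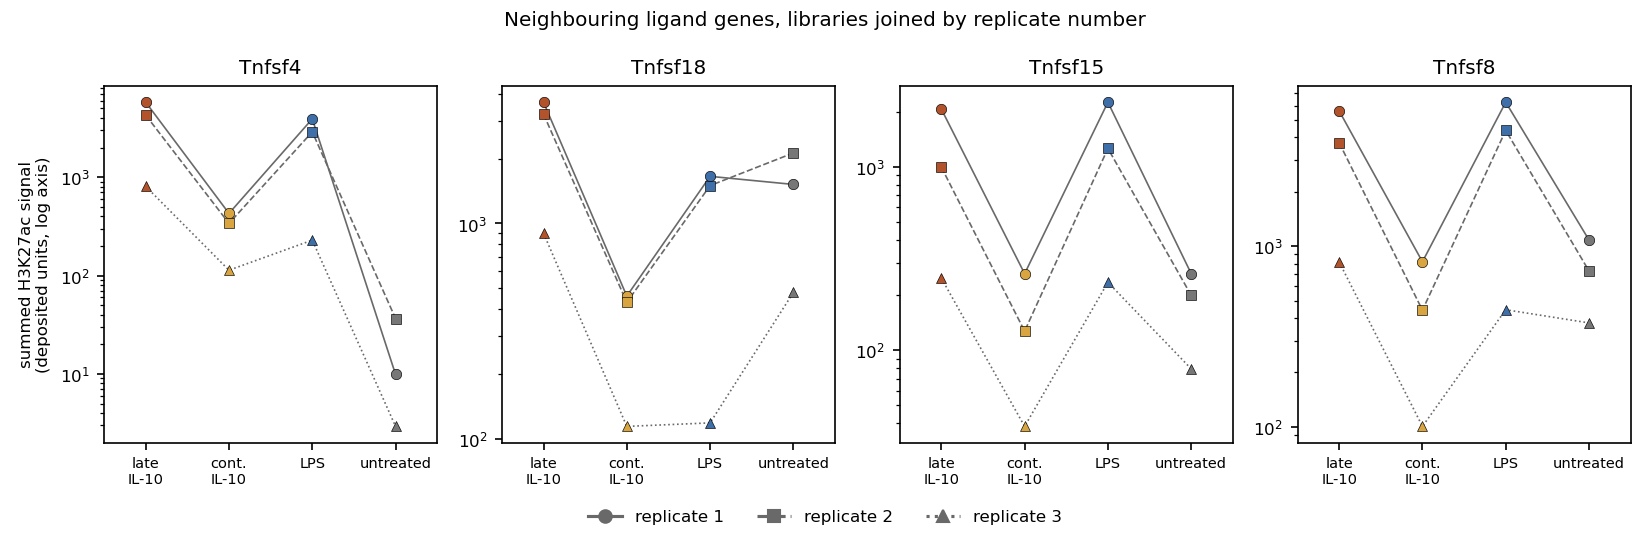
Summed H3K27ac signal in deposited units (log axis) of Tnfsf4, Tnfsf18, Tnfsf15 and Tnfsf8 by group, with libraries of 1 replicate number joined by a line. Replicate 3 is the lowest in every group of each gene, and in every replicate the continuous IL-10 library lies below the LPS and late IL-10 libraries.

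IL-10 given together with LPS lowered 1 of 25 tested family genes relative to LPS alone and raised none. The 1 gene lower is 4% of those tested, against 3.17% of all genes, and the 0 genes higher stand against 2.59%, with 3 higher at an unadjusted p under 0.05 and 0 by edgeR. It was Tnfsf10, where continuous IL-10 libraries were all below LPS libraries, in the values given above (log2 change -2.4, SE 0.49, adjusted p = 0.0135). This call was lost without LPS replicate 1 (0.0748), LPS replicate 2 (0.0678) or continuous IL-10 replicate 2 (0.0687). Within the gene, chr3:27323270-27328797 was at the floor in all 3 continuous IL-10 libraries, at least 30.8-fold lower than with LPS (adjusted p = 0.00183), and this region kept its call without each library. The promoter region had 132, 49.5 and 61.1 with continuous IL-10 against 445, 447 and 221 with LPS (log2 change -2.24, adjusted p = 0.0274, up to 0.116 without 1 of 4 libraries).

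At region level, 4 of 78 were called lower with continuous IL-10 than with LPS (5.13%, against 3.24% of all regions) and 0 higher (against 3.28%). An unadjusted p under 0.05 gave 8 higher and edgeR 0, with no share of all regions at those rules. The other 2 regions called lower were the promoter region of Tnfsf8 and a region within Tnfrsf23, chr7:143666314-143667906. That of Tnfsf8 had 48.9, 12.7 and 24.6 against 354, 185 and 63.5 (log2 change -2.64, adjusted p = 0.0457). That of Tnfrsf23 had 1.69, 3.81 and 0.986 against 27.5, 47.1 and 15.8 (log2 change -3.27, adjusted p = 0.0237). Both calls were lost without each of 4 libraries, with adjusted p up to 0.199 for Tnfsf8 and 0.1 for Tnfrsf23, and that of Tnfsf8 also by edgeR (0.0542). With the replicate block, 6 genes were lower and 2 higher, against 10.3% and 7.34% of all genes. Added as lower were Tnfsf15 (adjusted p = 1.52e-05), Tnfsf8 (0.000123), Tnfsf4 (0.00317), Tnfrsf17 (0.0156) and Tnfsf18 (0.0227), and added as higher were Tnfrsf21 (0.0114) and Tnfsf14 (0.0475). Without the libraries numbered 3 the log2 changes of the ligand genes among these were -3.2 at Tnfsf15, -3.12 at Tnfsf8, -3.14 at Tnfsf4 and -1.82 at Tnfsf18, all called. Without those libraries Tnfrsf17 (-1.06, adjusted p = 0.00793) and Tnfrsf11a (-0.72, adjusted p = 0.0251) were also lower and Tnfrsf21 (1, adjusted p = 0.0136) higher. The blocked region counts were 21 lower (against 8.98% of all regions) and 5 higher (against 7.42%).

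IL-10 added for the last 30 min left most family genes without a detectable difference from LPS alone. Late IL-10 raised 2 of 25 genes (8%, against 3.19% of all genes) and lowered none (against 0.26%), with 0 lower also at an unadjusted p under 0.05 and by edgeR. Tnfsf14 was higher in every late IL-10 library than in every LPS library, in the values given above, with a log2 change of 2.01 (SE 0.36, adjusted p = 0.00568) that kept its call without each library. The change came from the region that covers the promoter shown above, with 991, 686 and 810 against 256, 178 and 156 (log2 change 2.09, adjusted p = 0.00555). The other was Tnfrsf1a, encoding TNFR1, the main receptor of TNF. Its region, chr6:125348299-125360989, had 2784, 2834 and 3321 with late IL-10, 1497, 1616 and 2083 with continuous IL-10, 1208, 1287 and 1788 with LPS, and 993, 909 and 1616 in untreated cells. The log2 change from LPS was 1.08 (SE 0.27, adjusted p = 0.0444), and the call was lost without each of 5 of the 6 libraries (adjusted p 0.106 to 0.172). Tested among regions, the same values gave an adjusted p of 0.049. That region call was also lost by edgeR (0.0514), with median centring (0.168) and with no filter (0.0527).

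Of 78 regions, 4 were higher with late IL-10 than with LPS (5.13%, against 3.14% of all regions) and 0 lower (against 0.396%), with 2 lower at an unadjusted p under 0.05 and 0 by edgeR. They are the regions of Tnfsf14 and Tnfrsf1a and 2 that were at the floor in all LPS libraries. The first of these lies over a start site of Tnfrsf9, encoding the receptor 4-1BB, at chr4:150923918-150929574, and covers the promoter window with the overlapping NF-kB matches. It had 303, 305 and 80.6 with late IL-10, 15.2, 35.6 and 0.986 with continuous IL-10, 1.97, 1.68 and 0.464 with LPS, and 0.707, 1.26 and 0.419 in untreated cells. All late IL-10 libraries stood above all others, and the fold over LPS was at least 55.8 (log2 change 6.44, SE 1.04, adjusted p = 0.0034). The second lies 51876 bp beyond Tnfsf18, at chr1:161557166-161561824, with 313, 161 and 70 with late IL-10 and values no higher than 6.3 in any other library. It was at least 44.2-fold higher than with LPS (adjusted p = 0.00116). Both kept their call without each library. With the replicate block Tnfsf18 was also called higher over all its regions (log2 change 1.72, adjusted p = 0.00465, or 1.12 and 0.0109 without the libraries numbered 3), making 3 genes higher and 0 lower, against 6.72% and 3.01% of all genes. For regions the block gave 7 higher (against 6.17%) and 1 lower (against 1.92%).

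No family gene was called between late and continuous IL-10 over all libraries. Of 25 genes 0 were called higher (against 1.88% of all genes) and 0 lower (against 0.668%). An unadjusted p under 0.05 gave 9 higher and 2 lower, and edgeR 1 higher, Tnfrsf1a, and 0 lower. The share of all genes at those rules is not given, so these counts do not show a shift of the family. With the block 7 were higher and 1 lower, against 9.69% and 7.17% of all genes. Those higher were Tnfsf15 (adjusted p = 6.41e-05), Tnfsf18 (0.000119), Tnfsf8 (0.000166), Tnfsf4 (0.000552), Tnfsf10 (0.00827), Tnfrsf1a (0.0105) and Tnfsf14 (0.0371), and Tnfrsf21 was lower (0.00186). Without the libraries numbered 3 the late-minus-continuous log2 change was 3.7 at Tnfsf4, 2.94 at Tnfsf18, 2.97 at Tnfsf15 and 2.92 at Tnfsf8, all called. Called higher as well without them were Tnfsf10 (adjusted p = 0.0259), Tnfsf14 (0.0103), Tnfrsf1a (0.0132), Tnfsf9 (0.0298) and Tnfrsf17 (0.0368), and Tnfrsf21 was lower (0.00261). The T cell marker sums given above also differed between these groups without overlap, but the markers did not move together. Means of Lck (705 against 240), Cd3e, Cd247 and Cd8b1 were higher with late IL-10. Those of Cd4 (11.8 against 52) and Cd3d (66.2 against 114) were lower. The part of these markers in the gene changes was not tested.

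At region level 6 of 78 were higher with late than with continuous IL-10 (7.69%, against 1.86% of all regions) and 0 lower (against 0.852%). An unadjusted p under 0.05 gave 7 lower and edgeR 0, with no share of all regions at those rules. The region beyond Tnfsf18 was at least 46.1-fold higher (adjusted p = 0.00685) and kept its call without each library. The other 5 calls were each lost without any 1 of 5 of the 6 libraries. They are a region 11470 bp from Tnfsf4, chr1:161365596-161383968, with 1296, 788 and 121 with late IL-10 and the floor in all continuous IL-10 libraries, the region within Tnfsf10 with 33.5, 26.9 and 25.7 against the floor, the Tnfrsf9 region, the region within Tnfrsf8 and that within Tnfrsf23. With the block 27 regions were higher (against 8.02% of all regions) and 4 lower (against 4.96%). Both comparisons of IL-10 with LPS share the LPS libraries, and late and continuous IL-10 each enter more than 1 comparison, so the calls are not independent of each other.

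**Figure D5:**
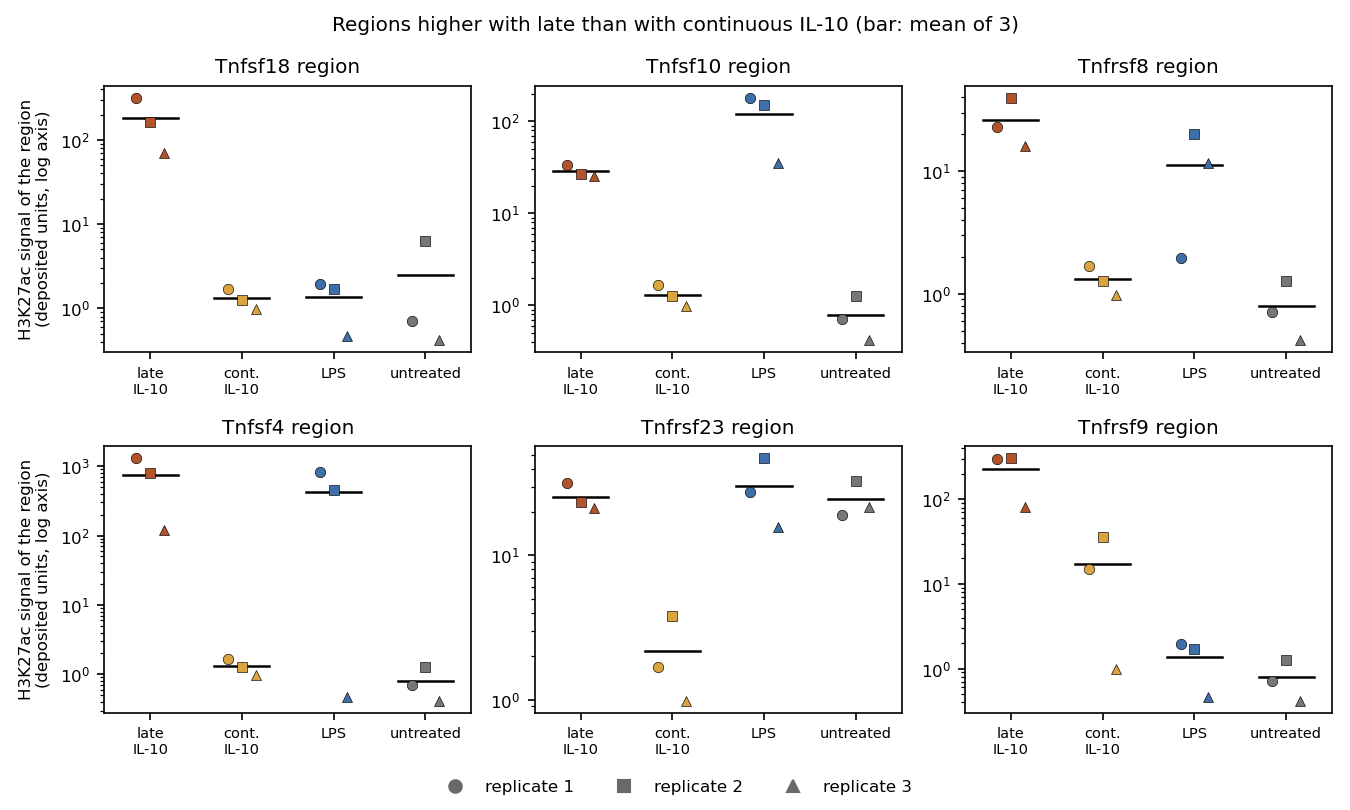
H3K27ac signal in deposited units (log axis) of the 6 regions called higher with late than with continuous IL-10, by group. Points are libraries shaped by replicate number, and bars are means of 3. All late IL-10 libraries lie above all continuous IL-10 libraries in each panel, the comparison by which the regions were chosen. The LPS libraries are at the floor at Tnfrsf9 and Tnfsf18 but not at Tnfsf10 or Tnfrsf23.

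In all, 12 family genes were called over their summed regions, 9 more had a called region only, and 7 had neither. The 7 are Tnfrsf10b, encoding a TRAIL receptor, Tnfrsf11b, encoding the secreted decoy osteoprotegerin, Tnfrsf12a, encoding the TWEAK receptor Fn14, Tnfrsf13c, encoding the BAFF receptor, Tnfrsf14, encoding HVEM, Tnfrsf18, encoding GITR, and Tnfrsf22. Tnfrsf14 was strong in every group, with a mean of 111 per kb with late IL-10, 119 with continuous IL-10, 142 with LPS and 108 in untreated cells. Its weaker region, chr4:154906862-154916547, was less even, with 181, 296 and 425 with late IL-10 against 609, 680 and 698 with continuous IL-10. That log2 change of -1.22 was not called (adjusted p = 0.0846), but was without late IL-10 replicate 3 (0.033). Tnfrsf11b, in contrast, had 89.8, 208 and 1.77 with late IL-10, 37.1, 49.5 and 1.97 with continuous IL-10, 29.5, 26.9 and 0.927 in LPS libraries, and was at the floor in all untreated libraries. Its replicate 3 was at the floor in every group, and its LPS-minus-untreated log2 change was 2.24 (SE 1.67, adjusted p = 0.366). It was called without the libraries numbered 3 (log2 change 3.32, adjusted p = 0.0051) and not with the replicate block (0.084). Tnfrsf18, Tnfrsf22 and Tnfrsf9 were too weak over all libraries to be tested as genes. Per kb of region, untreated signal was highest at the shared Tnfsf12 and Tnfsf13 region (198) and at the regions of Tnfrsf8 (151) and Tnfrsf1b (132), which are mostly the same region, and lowest at Tnfrsf9 (0.141). All untreated libraries lay at the floor at Tnfrsf9, as at Tnfrsf11b (0.265), so these low values reflect the floor and the region width. With LPS the mean per kb at Tnfsf9 was 88.5, against 11.4 in untreated cells.

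The family members with other symbols, and the proteins that carry the signal, were examined as lists. Of the other ligands 3 of 4 tested were higher with LPS (75%, against 14.2% of all genes) and 0 lower, but Tnf, Lta and Ltb share 1 region and so count once. That region had 9709, 9310 and 9894 with late IL-10, 7771, 9600 and 9772 with continuous IL-10, 14928, 17258 and 15555 with LPS, and 4191, 3736 and 5344 in untreated cells. All LPS libraries lay above all others, and the continuous-minus-LPS log2 change was -0.82 (SE 0.19, adjusted p = 0.0207). This call was lost without each of 5 of 6 libraries (adjusted p up to 0.0934), by edgeR (0.0808) and with median centring (0.14). The late-minus-LPS log2 change was -0.72 (SE 0.19, adjusted p = 0.0512), not called, and with the replicate block this region was called lower (adjusted p = 0.0137). Of 5 other receptors, 2 were higher with LPS and 2 lower (40% each, against 14.2% and 13.3% of all genes). Cd40 (log2 change 4.34, adjusted p = 3.01e-06) and Fas (3.26, adjusted p = 0.000478) were the higher ones, and Relt (-2.11, adjusted p = 0.00169) and Cd27 (-1.05, adjusted p = 0.0189, lost without each of 3 libraries, and 0.782 over the gene body alone) were lower. Cd40, a costimulatory receptor of antigen-presenting cells, was then lower with continuous IL-10 than with LPS (-1.72, adjusted p = 0.00988, or up to 0.0602 without 1 of 2 LPS libraries, 0.055 by edgeR and 0.104 with median centring) and higher with late than with continuous IL-10 (1.68, adjusted p = 0.0242, lost without each of 5 libraries, by edgeR at 0.0879 and with median centring at 0.109). Relt was higher with continuous IL-10 than with LPS (1.79, adjusted p = 0.02, lost without each of 4 libraries). With the replicate block Relt was also lower with late than with continuous IL-10 (-1.25, adjusted p = 0.00822). Fas, a death receptor, was lower with continuous IL-10 than with LPS under the block (-1.05, adjusted p = 0.00993) and higher with late than with continuous IL-10 (1.32, adjusted p = 0.00283), where the fit without the block called neither (adjusted p = 0.298 and 0.191, in that order).

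Among 24 tested genes of receptor-proximal signalling, 10 were higher with LPS (41.7%, against 14.2% of all genes) and 2 lower (8.33%, against 13.3%), with a median log2 change of 0.73, against -0.11 over all genes. The largest changes among them were at Traf1 (log2 change 2.9, adjusted p = 0.000366), Tnfaip3, encoding a ubiquitin-editing enzyme that restrains NF-kB (2.84, adjusted p = 0.00278), Birc2 (2.45, adjusted p = 0.00015) and Mlkl, the effector of necroptosis (2.33, adjusted p = 0.00075). Ripk1 (-1.23, adjusted p = 0.00992) and Otulin (-1.5, adjusted p = 0.002) were lower. The replicate block added Traf3 (adjusted p = 0.0265), Traf6 (0.0277) and Cyld (0.0392) as higher and Ripk3 (0.0323) as lower, making 13 higher and 3 lower. Of 12 genes of the NF-kB arms, 5 were higher (41.7%, against 14.2% of all genes) and 1 lower (8.33%, against 13.3%), with a median log2 change of 0.84. The largest changes were at Map3k14, the kinase NIK of the noncanonical arm (-2.2, adjusted p = 0.000579), Nfkb2 (2.01, adjusted p = 0.000365), Rel (1.97, adjusted p = 0.0146, up to 0.0761 without 1 of 3 libraries) and Nfkb1 (1.85, adjusted p = 0.00593). Tab2 was added as higher by the block (1.39, adjusted p = 0.00362). With continuous IL-10 relative to LPS, Mlkl was lower (-1.8, adjusted p = 0.018, lost without each of 4 libraries), and with late relative to continuous IL-10 it was higher (1.74, adjusted p = 0.0379, lost without each of 5 libraries). Both calls were also lost by edgeR (0.0532 and 0.0862) and with median centring (0.102 and 0.11). With the replicate block the receptor-proximal list had 1 gene higher and 4 lower with continuous IL-10 than with LPS (against 7.34% and 10.3% of all genes), 2 higher with late IL-10 than with LPS (against 6.72%) and 4 higher with late than with continuous IL-10 (against 9.69%). Those added in the first of these were Birc2 (adjusted p = 0.015), Rnf31 (0.0174) and Traf1 (0.0437), all lower, and Otulin (0.0327), higher. Fadd (0.0199) and Tnfaip3 (0.045) were higher with late IL-10 than with LPS, and both, with Rnf31 (0.0409), were added as higher with late than with continuous IL-10. In the NF-kB list neither IL-10 schedule gave a call relative to LPS by limma without the block or by edgeR. An unadjusted p under 0.05 gave 2 higher and 4 lower for continuous IL-10 and 1 higher for late IL-10, with no share of all genes at that rule. With the block, continuous IL-10 gave 2 higher and 4 lower than LPS, against 7.34% and 10.3% of all genes. Map3k14 (log2 change 1.02, adjusted p = 0.00415) and Nfkbia, encoding an inhibitor of NF-kB (0.72, adjusted p = 0.038), were higher. Nfkb1 (-1.1, adjusted p = 0.0253), Ikbkb (-0.8, adjusted p = 0.0266), Rel (-1.43, adjusted p = 0.0267) and Nfkb2 (-0.8, adjusted p = 0.0375) were lower. Late IL-10 gave 1 higher than LPS with the block, Nfkbia (0.85, adjusted p = 0.025), against 6.72% of all genes.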

How the data were processed

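The submitters' processing notes name the mm10 build and the tools DiffBind, MACS2, Bowtie2 and Trim Galore, with no role, order or version. What the authors deposited is a table of signal, 1 column a library, over 40691 consensus regions. In every library 100% of values were whole multiples of the smallest, within 0.0001 reads, so the signal equals reads times 1 factor per library. Between 19.7% and 29.9% of a library's regions lay at exactly 1 read. No source used here says whether reads were subtracted first, so the recovered reads, 5149730 to 26922552 per library (median 18 to 89 per region), need not be the depth. An input library was not analysed here.

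Regions were assigned with the RefSeq GRCm38.p6 gene table to every protein-coding gene they overlap, or else to the nearest within 100 kb, and summed per gene. The design foresaw a choice of test by unit, and as the values are scaled, limma 3.58.1 (R 4.3.3; trend, robust) was fitted to log2(value + 1) of all 12 libraries with group as the only term. Genes or regions with a mean log2 above the 10th percentile were tested, and p-values were adjusted by Benjamini-Hochberg over all of them. Changes of weak regions on this scale can be smaller or larger than by edgeR. With LPS, the Tnfsf15 region chr4:63771265-63773946 had a log2 change of 3.13, against 5.42 by edgeR. The Tnfrsf1b region chr4:145213826-145226082 had -2.92, against -1.61 by edgeR. Where a group lay at 1 read throughout, the fold is a bound against 3 reads per region and library, covering counting only. The script was checked on simulated data. Alternatives were a replicate block, a pseudocount of 5, median centring, no filter, edgeR 4.0.16 (quasi-likelihood, TMM) on recovered reads, gene-body regions only, leaving out each library and, added after seeing the data, leaving out the libraries numbered 3.

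Libraries with the same number deviated from their group means together: over regions the 12 correlations were 0.149 to 0.712, and 11 of 12 libraries were highest with their own number; over genes the lowest was 0.0618. The main fit, which gave the calls, did not pair libraries. As the protocols state 3 independent pools, the replicate block, which pairs libraries of 1 number, was run as an alternative. The sample titles give a replicate number only and do not say that it stands for the same pool in every group. Family genes whose call the block changed are named, while regions whose call it changed are mostly given only as counts. No source used here says whether pools are separate animals, so p-values measure the spread between pools.

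Every family gene is accounted for. Library values are given for genes called in a comparison and, for other genes, for called regions, at most 3 per gene and comparison; list genes are the 4 called with the largest change. Promoters come from RefSeq, GRCm38.p6; 21 of the 28 genes have a window there. The genes and lists were chosen with earlier results of these data known.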

Additional observations from a re-analysis of the deposited data

Results flagged for a closer look

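The 6 regions below were singled out because the effect of IL-10 differed between its late and continuous schedules by the test of that difference (limma over 36621 regions). The late-minus-continuous log2 change was 7.77 (SE 1.83, adjusted p = 0.0427) at the region 11470 bp from Tnfsf4, chr1:161365596-161383968, with 1296, 788 and 121 with late IL-10 and the floor of 1 read with continuous IL-10. At the region 51876 bp from Tnfsf18, chr1:161557166-161561824, it was 6.06 (SE 0.84, adjusted p = 0.00685). The Tnfrsf9 region gave 4.22 (SE 1.04, adjusted p = 0.0489), with 303, 305 and 80.6 against 15.2, 35.6 and 0.986, and the call was lost by edgeR (0.0913). The Tnfsf10 region chr3:27323270-27328797 gave 3.68 (SE 0.8, adjusted p = 0.0301), with 33.5, 26.9 and 25.7 against the floor. The Tnfrsf8 region gave 3.47 (SE 0.78, adjusted p = 0.0356), with 22.9, 39.4 and 15.9 against the floor, and was lost by edgeR (0.0502) and without the libraries numbered 3 (0.0505). The Tnfrsf23 region chr7:143666314-143667906 gave 3.14 (SE 0.77, adjusted p = 0.0481), with 31.7, 23.3 and 21.3 against 1.69, 3.81 and 0.986, and was lost by edgeR (0.0645). All 3 late IL-10 libraries were above all 3 continuous ones in each of the 6 regions. As the regions were chosen by this comparison, that separation is no further support. Apart from the Tnfsf18 region, each call was lost without any 1 of 5 libraries.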

How the results depend on the processing

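Over the 14 gene calls, 8 held without each library in turn, and over the 44 region calls 23 did. All 14 gene calls held with the replicate block, a pseudocount of 5, median centring, no filter, edgeR and without the libraries numbered 3. With gene-body regions only, 12 held, the LPS-minus-untreated call of Tnfsf4 was lost and Tnfrsf17 reversed to -4.09. Region calls lost numbered 7 with edgeR, 5 with no filter, 4 with a pseudocount of 5, 2 with median centring, 2 without the libraries numbered 3 and 0 with the block. Among those lost with edgeR, no filter and median centring was the Tnfrsf1a region, which has the same values as its gene. The counts of calls moved more. With the replicate block, which pairs the libraries, genes went to 8 higher with LPS than untreated, to 2 higher and 6 lower with continuous IL-10 than with LPS, and to 7 higher and 1 lower with late than with continuous IL-10. Regions went to 27 higher with LPS, 5 higher and 21 lower with continuous IL-10, 7 higher and 1 lower with late IL-10 than with LPS, and 27 higher and 4 lower with late than with continuous IL-10. Genes higher with late than with continuous IL-10 numbered 1 with a pseudocount of 5, 1 with median centring, 1 with no filter and 1 with edgeR. Regions lower with continuous IL-10 than with LPS numbered 7 with a pseudocount of 5, regions higher 1 with median centring, and regions higher with late than with continuous IL-10 were 3 with edgeR. Leaving out 1 library, or the 4 numbered 3 together, gave 4 to 10 genes higher and 3 to 7 lower with LPS than untreated, 0 to 2 higher and 0 to 7 lower with continuous IL-10 than with LPS, 1 to 4 higher with late IL-10 than with LPS, and 0 to 10 higher and 0 to 1 lower with late than with continuous IL-10. For regions these ranges were 10 to 31 higher and 10 to 18 lower with LPS, 0 to 3 higher and 1 to 26 lower with continuous IL-10 than with LPS, 3 to 5 higher with late IL-10 than with LPS, and 1 to 30 higher and 0 to 5 lower with late than with continuous IL-10. Without LPS replicate 1, 3 genes were lower with LPS than untreated, and 0 genes and 1 region lower with continuous IL-10. Without LPS replicate 2, these last counts were also 0 and 1, and 10 regions were higher with LPS. Without LPS replicate 3, 8 genes and 28 regions were higher with LPS, and with continuous IL-10 5 genes and 24 regions were lower, and 1 gene and 3 regions higher. Without untreated replicate 3, 10 regions were higher with LPS. Without continuous IL-10 replicate 2, 0 genes and 2 regions were lower with continuous IL-10 than with LPS, and without its replicate 3, 1 region. Without late IL-10 replicate 3, 2 genes and 14 regions were higher and 1 gene and 3 regions lower with late than with continuous IL-10, and without any 1 of the other 5 libraries of these groups 1 region was higher. Without any 1 library but LPS replicate 3, 1 gene was higher with late IL-10 than with LPS. The cause of these shifts was not tested. Signal at or near 1 read limits the weak regions, at which folds are bounds or depend on the pseudocount.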
